A study of Arabidopsis thaliana with 40 samples.

Results

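AGL19 (AT4G22950), AGL24 (AT4G24540) and AGL42 (AT5G62165, also called FOREVER YOUNG FLOWER or FYF) are MADS-box genes of Arabidopsis thaliana that are known from the control of flowering. Each has 1 probe set on the array that is paired with a single gene, and these 3 genes were taken from 13356 genes with such a probe set. They were chosen because of their levels over all 16 groups of the study and the labelled ages of the plants. Their levels and differences are therefore given as a description, with standard errors (SE) and with no p-value. The 40 arrays hold RNA from leaves of Col0 (Columbia) wild type, of aox1a mutants, of rpoTmp mutants and of aox1a:rpoTmp double mutants. AOX1A is the mitochondrial alternative oxidase, an electron sink beside the cytochrome pathway, and RPOTMP is an RNA polymerase of the phage type that serves both mitochondria and plastids.

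Plants of every group grew at 22°C with 16 h of light at 100 µE and 8 h of dark. They then either stayed in these conditions (untreated) or received moderate light of about 350 µE with no water (moderate light and drought, MLD), and leaves were taken 4 d later. Each mutant is labelled with a wild-type control of its own, and the resulting sets are called here after the mutant. The aox1a and rpoTmp sets hold 14 arrays each and the double (aox1a:rpoTmp) set 12. Every wild type, and the double mutant, was measured on 3 arrays per treatment. The single mutants are each represented by line 1 and line 2, with 2 arrays per line and treatment, and no second line of the double mutant is labelled. The alleles of the mutants are not given in the labels, which do not say either whether replicates came from separate plants, so the errors measure only the spread between these arrays.

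The labels disagree on plant age. The sample characteristics give 4 weeks for every plant of the aox1a set, 4 weeks for wild type of the rpoTmp set and 5 weeks for rpoTmp. For the double set they give 5 weeks to untreated plants of both genotypes and 4 weeks to both under MLD. The treatment protocol gives 4 weeks to aox1a and wild type, 5 weeks to rpoTmp and 6 to 7 weeks to the double mutant. The source names give 4 weeks throughout. In the protocol's account, age cannot be told apart from genotype within the rpoTmp and double sets. By the sample characteristics, age cannot be told apart from genotype within the rpoTmp set, nor from treatment within the double set.

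MADS-box proteins are transcription factors that act in dimers and larger complexes, and many of them set the time of flowering or the identity of floral organs. AGL24 promotes flowering together with SOC1, each raising expression of the other, and is repressed in young flowers by AP1. AGL19 promotes flowering in parallel to the FLC pathway and is held silent by Polycomb proteins until prolonged cold relieves the repression. AGL42 belongs to the SOC1 group with AGL71 and AGL72, promotes flowering and, when overexpressed, delays senescence and abscission of floral organs. All 3 genes are studied mostly in shoot tips and flowers, although transcripts can be found in leaves.

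Values are log2 of the intensity that the authors deposited. The lower quartile of an array lay between 2.47 and 2.61 on this scale and its lowest value between 1.41 and 1.64, so readings near 2.5 are close to the floor. A fall cannot be followed there, and the size of a rise from there is not exact. Different probe sets bind with different efficiency, so no level of one gene is set against that of another. The tissue label was borne out by RCA, the Rubisco activase of leaves, with group means between 14.01 and 14.54, and by PSAN, a photosystem I subunit, between 10.91 and 13.87. Of the markers of other tissues that could be measured, the floral gene UFO had group means of 1.78 to 2.02, the shoot meristem gene CLV3 of 2.22 to 2.38, and the root genes EXPA7 and PYK10 of 2.18 to 3.01 and 2.27 to 2.84. These are 1 of 13 floral, 1 of 10 meristem and 2 of 7 root markers listed. Wild-type untreated replicate 2 of the aox1a set stood apart, with a standard deviation (SD) of 0.57 for its log2 difference from the other arrays of its group, against 0.24 for the most alike. The arrays of rpoTmp lines 1 and 2 under MLD came next, at 0.52 and 0.50. Differences of the 3 genes that rest on wild-type untreated replicate 2 of the aox1a set are also given without it.

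**Figure D1:**
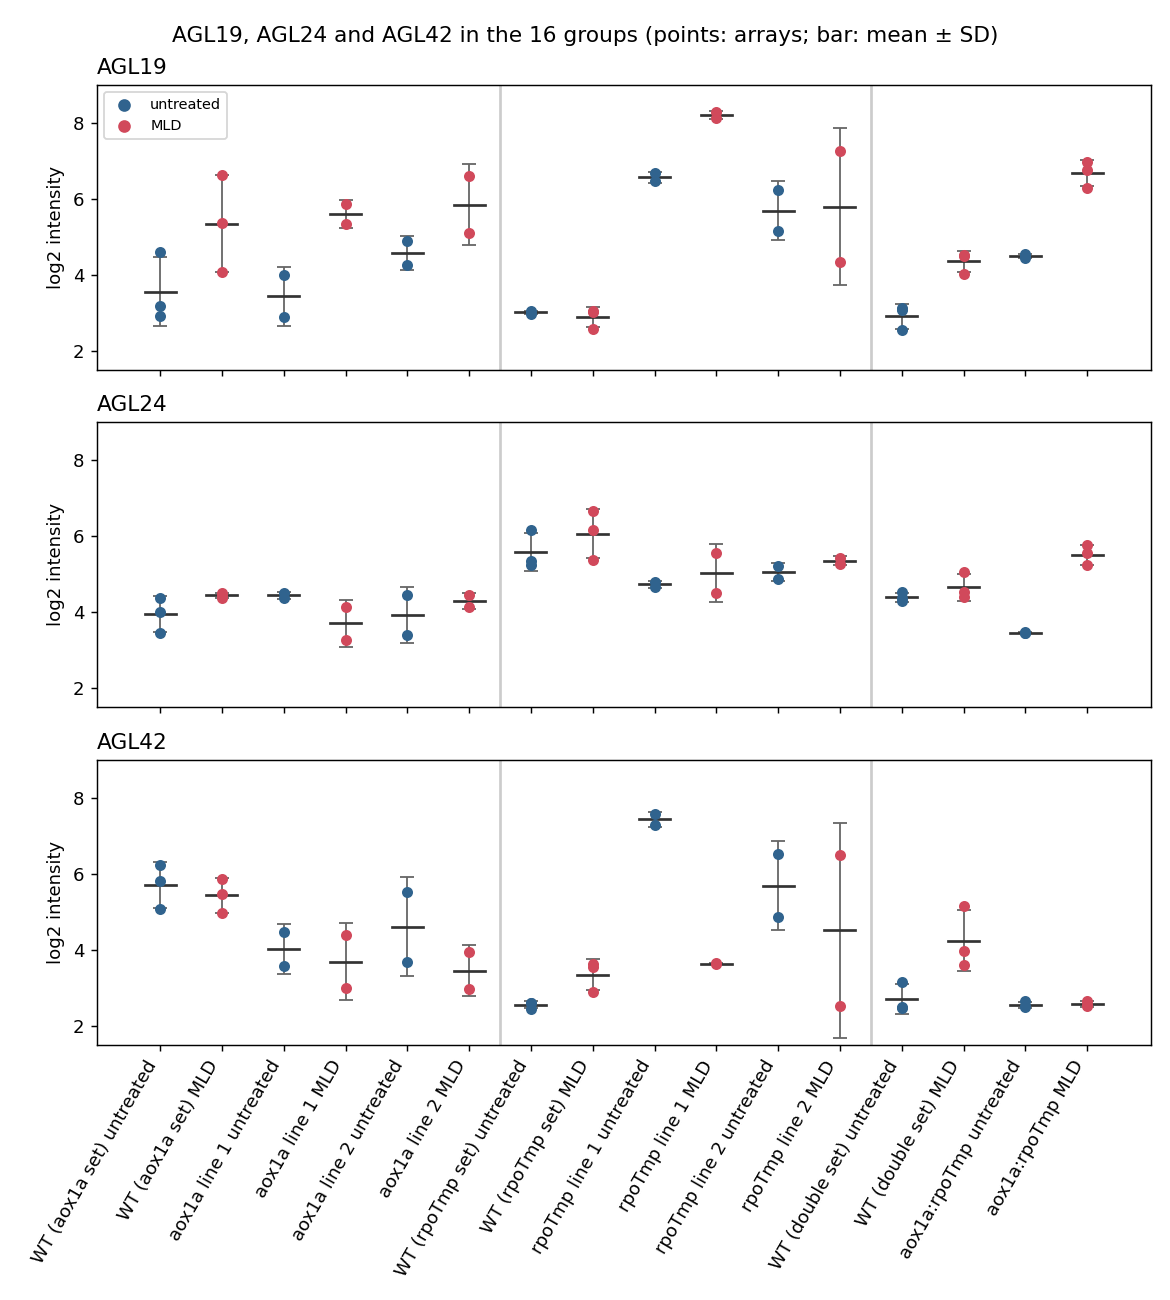
Log2 intensity of AGL19, AGL24 and AGL42 (vertical axes) in the 16 groups (horizontal axis), with points for arrays, a short line for the group mean and bars for ± 1 SD of 2 or 3 arrays. AGL19 was highest in rpoTmp line 1 under MLD (mean 8.21), AGL24 in wild type of the rpoTmp set under MLD (6.07) and AGL42 in untreated rpoTmp line 1 (7.43).

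AGL19 had the widest range of the 3 genes. Its group means spanned 5.32 log2 units, a wider span than that of 96.8% of all probe sets, whose median span was 1.27. The highest group was rpoTmp line 1 under MLD with a mean of 8.21 ± 0.11 (SD, n = 2), which lies at the 82.5th to 83.7th percentile of its arrays. Next came the double mutant under MLD at 6.68 ± 0.35 (n = 3) and untreated rpoTmp line 1 at 6.57 ± 0.15 (n = 2). The lowest were wild type of the rpoTmp set under MLD at 2.89 ± 0.27 (n = 3) and untreated wild type of the double set at 2.91 ± 0.32 (n = 3). When the 16 groups were put in order, the arrays of only 1 of 15 neighbouring pairs did not overlap, namely rpoTmp line 1 under MLD above the double mutant under MLD, by 1.53. The other 14 neighbours in the order did not differ beyond their spread.

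In the aox1a set AGL19 read 4.59, 2.92 and 3.18 in untreated wild type and 5.36, 4.08 and 6.62 under MLD. It read 3.99 and 2.88 in untreated aox1a line 1, 4.89 and 4.25 in line 2, 5.34 and 5.87 in line 1 under MLD, and 6.60 and 5.10 in line 2 under MLD. Every mutant array was higher under MLD than any untreated mutant array, whereas the wild-type arrays of both treatments overlapped. In the rpoTmp set the gene stayed near the floor in wild type, with 3.02, 3.04 and 2.98 untreated and 2.59, 3.03 and 3.06 under MLD. The untreated rpoTmp arrays read 6.47 and 6.68 in line 1 and 6.24 and 5.15 in line 2, all above the wild type. Under MLD line 1 read 8.13 and 8.29, and line 2 read 7.25 and 4.33, so the lines parted and line 2 was split between its arrays. For the double set, untreated wild type read 3.12, 2.54 and 3.07 and untreated double mutant 4.50, 4.56 and 4.46. Under MLD the wild type read 4.54, 4.04 and 4.50 and the double mutant 6.98, 6.30 and 6.77. Double mutant and wild type did not overlap in either condition, nor did the treatments overlap in either genotype.

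AGL24 had the narrowest range. Its group means spanned 2.61 log2 units, more than 81.4% of probe sets. Wild type of the rpoTmp set was highest, at 6.07 ± 0.64 under MLD and 5.59 ± 0.51 untreated (n = 3 each), followed by the double mutant under MLD at 5.52 ± 0.27 (n = 3). The untreated double mutant was lowest at 3.46 ± 0.02 (n = 3). Of the 15 neighbours in the order of groups, 1 pair did not overlap, rpoTmp line 2 under MLD above the same line untreated, by 0.30.

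In the aox1a set AGL24 read 4.39, 3.45 and 4.01 in untreated wild type, and 4.52, 4.43 and 4.39 under MLD. The mutant arrays read 4.51 and 4.38 in untreated line 1, 4.45 and 3.41 in untreated line 2, 4.15 and 3.27 in line 1 under MLD, and 4.15 and 4.46 in line 2 under MLD. No genotype difference stood out from the scatter there. In the rpoTmp set wild type read 5.25, 6.17 and 5.35 untreated and 6.66, 5.39 and 6.17 under MLD. The mutant read 4.66 and 4.81 in untreated line 1, 5.22 and 4.88 in untreated line 2, 4.50 and 5.57 in line 1 under MLD and 5.44 and 5.27 in line 2 under MLD. All untreated mutant arrays were below the lowest wild-type array, narrowly for 1 of line 2, and under MLD the genotypes overlapped. Wild type of the double set read 4.38, 4.53 and 4.29 untreated and 4.53, 4.39 and 5.06 under MLD. The double mutant read 3.45, 3.48 and 3.46 untreated and 5.23, 5.76 and 5.56 under MLD. It was thus below every wild-type array when untreated and above every wild-type array under MLD.

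AGL42 spanned 4.88 log2 units between group means, more than 95.8% of probe sets. Untreated rpoTmp line 1 was highest at 7.43 ± 0.20 (SD, n = 2). Untreated wild type of the aox1a set followed at 5.70 ± 0.59 (n = 3), then untreated rpoTmp line 2 at 5.68 ± 1.17 (n = 2) and wild type of the aox1a set under MLD at 5.43 ± 0.45 (n = 3). The gene was at the floor in 3 groups, untreated wild type of the rpoTmp set at 2.55 ± 0.09 and the double mutant at 2.56 ± 0.08 untreated and 2.57 ± 0.07 under MLD (n = 3 each). In the order of groups, 1 of 15 neighbouring pairs did not overlap, untreated rpoTmp line 1 above untreated wild type of the aox1a set, by 1.73.

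In the aox1a set AGL42 read 5.06, 5.81 and 6.24 in untreated wild type and 4.95, 5.85 and 5.47 under MLD. The mutant read 3.56 and 4.48 in untreated line 1, 3.69 and 5.52 in untreated line 2, 4.40 and 2.98 in line 1 under MLD and 2.97 and 3.93 in line 2 under MLD. Under MLD all 4 mutant arrays were below all 3 wild-type arrays, and 1 of the 4 untreated mutant arrays reached into the wild-type range. In the rpoTmp set wild type read 2.60, 2.60 and 2.45 untreated and 3.62, 2.88 and 3.54 under MLD. Untreated mutant arrays read 7.57 and 7.28 in line 1 and 6.51 and 4.86 in line 2, far above them. Under MLD line 1 read 3.64 and 3.62, which is close to wild type, and line 2 read 6.50 and 2.51, so that 1 array was high and the other at the floor. Wild type of the double set read 2.50, 2.46 and 3.16 untreated and 3.98, 3.59 and 5.14 under MLD. The double mutant read 2.65, 2.52 and 2.50 untreated and 2.65, 2.51 and 2.55 under MLD. The higher reading of wild type under MLD thus had no counterpart in the double mutant, where the gene stayed at the floor.

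Differences were fitted in each set with limma and are log2 differences ± SE. The share of all 22746 probe sets whose arrays do not overlap is given beside each count of the 3 genes, for reading only, since the genes were chosen on these same values. In bulk leaf RNA, more cells that express a gene and more RNA per cell cannot be told apart.

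**Figure D2:**
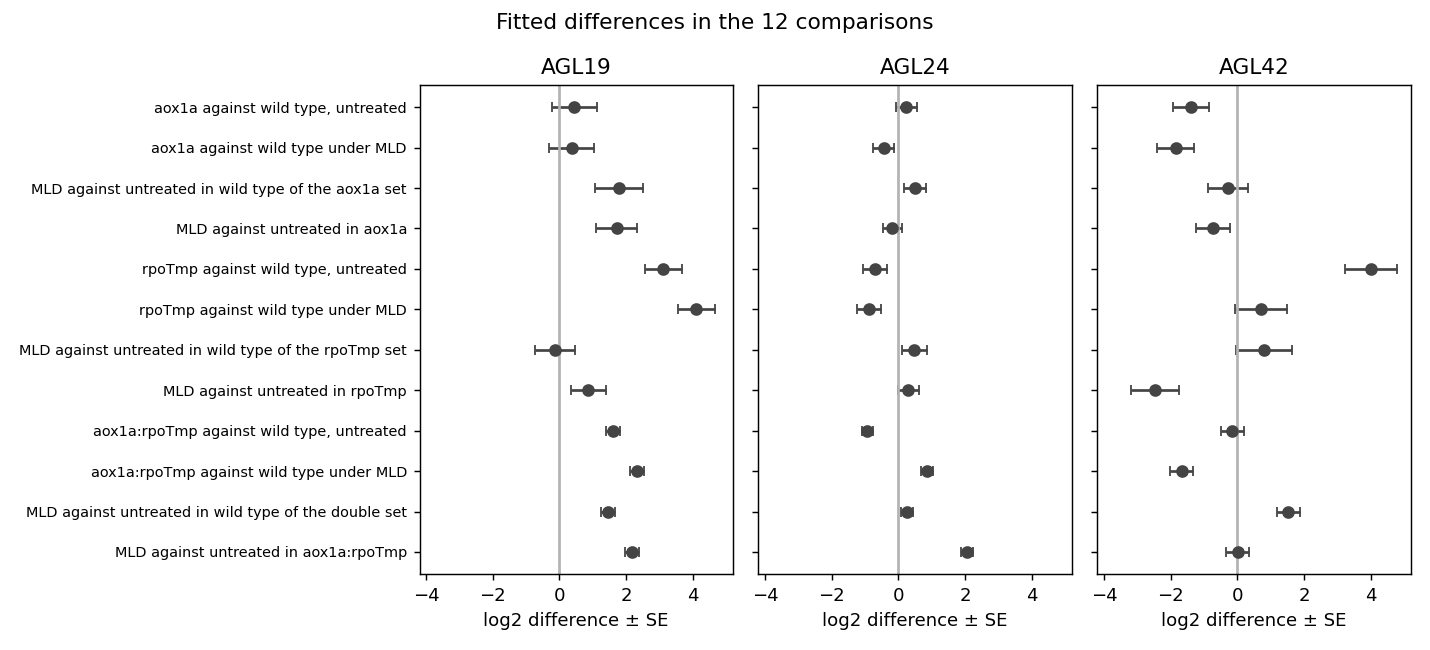
Fitted log2 differences ± SE (horizontal axes) of AGL19, AGL24 and AGL42 in the 12 comparisons (vertical axis), with a grey line at 0. AGL19 was 3.12 and 4.11 above wild type in rpoTmp, untreated and under MLD, and AGL42 was 4.01 above wild type in untreated rpoTmp.

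The aox1a comparisons ask how loss of AOX1A alters transcript levels. In untreated plants AGL19 differed by 0.44 ± 0.67, AGL24 by 0.24 ± 0.31 and AGL42 by -1.39 ± 0.55 from wild type. None of the 3 genes was free of overlap there, against 31.3% of all probe sets. Without wild-type untreated replicate 2 these differences were 0.12, -0.01 and -1.34. Under MLD the differences of aox1a from wild type were 0.37 ± 0.67, -0.44 ± 0.31 and -1.86 ± 0.55, and AGL42 was the 1 gene without overlap (background 28.3%). In wild type, MLD went with a difference of 1.79 ± 0.72 for AGL19, 0.50 ± 0.33 for AGL24 and -0.28 ± 0.59 for AGL42, with AGL24 the 1 gene without overlap (background 19.8%). That gap was minimal, since its lowest MLD array and its highest untreated array both read 4.39. Without the doubted array the 3 differences were 1.47, 0.25 and -0.22. In aox1a, MLD went with 1.72 ± 0.62, -0.18 ± 0.28 and -0.74 ± 0.51, and AGL19 was the 1 gene without overlap (background 54.1%). The AGL19 response of aox1a minus that of wild type was -0.07 ± 0.95, and 0.25 without the doubted array, so at this error the responses can be called neither alike nor different. Beside AGL19, 3 of 5 leaf senescence markers (of 24 listed, SAG101, SWEET15, WRKY53, WRKY6 and WRKY22 were measured) also rose with MLD in aox1a, SWEET15, WRKY53 and WRKY6 (adjusted p under 0.05, limma), with a list median of 1.15. Of all probe sets, 24.8% were called higher in that comparison and 52% in either direction. PSAN was lower there, at -2.06 ± 0.14, and was below wild type under MLD, at -1.43 ± 0.15. RCA, the other measured marker of leaf photosynthesis, went the other way and was called higher than wild type under MLD. Its highest group mean, 14.54, was in aox1a line 1 under MLD. Their part in the AGL19 values was not tested.

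In the rpoTmp set all 3 genes were free of overlap between untreated mutant and wild type, where 12.6% of all probe sets were. AGL19 was higher by 3.12 ± 0.56 (8.68-fold) and AGL42 by 4.01 ± 0.78 (16.1-fold), both from wild-type readings near the floor. AGL24 lay the other way, at -0.70 ± 0.35, and at -0.41 without wild-type untreated replicate 2 of the rpoTmp set, which is not the doubted array. Under MLD, AGL19 was higher in the mutant by 4.11 ± 0.56 and was the 1 gene without overlap (background 35.3%). AGL24 differed there by -0.88 ± 0.35 and AGL42 by 0.72 ± 0.78, which became -0.27 without line 2 MLD replicate 1 and 1.72 without line 2 MLD replicate 2. MLD in wild type went with -0.12 ± 0.60 for AGL19, 0.48 ± 0.38 for AGL24 and 0.80 ± 0.83 for AGL42, which was the 1 gene without overlap (background 23.5%). In rpoTmp, MLD went with 0.87 ± 0.52, 0.30 ± 0.33 and -2.49 ± 0.72, and none of the 3 was free of overlap (background 32.6%). Leaving out line 2 MLD replicate 1 or replicate 2 gave 0.14 or 1.60 for AGL19 and -3.48 or -1.49 for AGL42. The 3′ to 5′ log2 ratio of GAPDH, a reading of RNA integrity, comes from 2 pairs of control probe sets. In the first pair it was 3.16 ± 0.09 and 3.12 ± 0.13 (SD) in untreated rpoTmp lines 1 and 2 and 3.20 ± 0.18 in untreated wild type, and under MLD 3.70 ± 0.26, 3.48 ± 0.05 and 3.50 ± 0.31. In the second pair it was 0.10 ± 0.01 and -0.34 ± 0.18 in the untreated lines and -0.21 ± 0.12 in wild type, and under MLD 0.30 ± 0.17, 0.28 ± 0.18 and -0.02 ± 0.20. The second pair thus parted the untreated lines, and line 1 under MLD, the highest group for AGL19, had the highest mean of its set in both pairs. Of the 5 leaf senescence markers, 4 rose with MLD in rpoTmp (median difference of the list 1.29) and 2 were higher in rpoTmp than in wild type under MLD (median 0.76), with an adjusted p under 0.05 in limma. Of all probe sets, 18% and 15.7% were called higher in these comparisons. PSAN was lower with MLD in rpoTmp, at -2.15 ± 0.16, and below wild type under MLD, at -1.90 ± 0.17. RCA, the other measured marker of leaf photosynthesis, had no fall of such size, with all its group means between 14.01 and 14.54. The part of these measures in the results for the 3 genes was not tested.

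The rpoTmp lines were also compared with each other, and only the AGL19 difference under MLD stood well clear of its error. Untreated line 2 read 0.88 ± 0.73 lower than line 1 for AGL19 and 1.74 ± 1.02 lower for AGL42 (log2 differences -0.88 and -1.74), and 0.32 ± 0.46 higher for AGL24. All 3 genes were free of overlap between the lines, against 41.7% of all probe sets for 2 arrays against 2. Under MLD line 2 differed from line 1 by -2.42 ± 0.73 for AGL19, the 1 gene without overlap (background 30.7%), and by 0.87 ± 1.02 for AGL42. Taken alone, line 1 was above wild type by 3.56 untreated and 5.32 under MLD for AGL19, and line 2 by 2.68 and 2.90. For untreated AGL42 the values were 4.88 in line 1 and 3.14 in line 2. Both lines of the mutant therefore lay above wild type by several log2 units in these comparisons.

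Arrays of the double set scattered less and AGL19 differed in all 4 comparisons without overlap. It was higher in the double mutant than in wild type by 1.60 ± 0.21 untreated and by 2.32 ± 0.21 under MLD. It was higher under MLD than untreated by 1.45 ± 0.21 in wild type and by 2.18 ± 0.21 in the double mutant. AGL24 differed by -0.93 ± 0.17 in untreated double mutants and was higher under MLD, by 0.86 ± 0.17. Its response to MLD was 2.05 ± 0.17 in the double mutant against 0.26 ± 0.17 in wild type, a difference of 1.79 ± 0.25. AGL42 differed by -0.15 ± 0.34 between untreated genotypes and by -1.67 ± 0.34 under MLD. Its response was 1.53 ± 0.34 in wild type and 0.01 ± 0.34 in the double mutant. Without overlap were 2 of the 3 genes between untreated genotypes (background 37.6%), 3 under MLD (50.4%), 2 with MLD in wild type (53.7%) and 2 with MLD in the double mutant (39.9%).

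Other measures moved within the double set as well. The summed intensity of the 5 leaf senescence markers was 176 to 296 in untreated wild type and 595 to 844 in the untreated double mutant. It was 1324 to 1599 in wild type under MLD and 477 to 1417 in the double mutant under MLD, against 67.4 to 372 over all arrays of the other sets. The sum weighs the brightest gene most, WRKY53, whose highest group mean was 9.97, in this wild type under MLD. SAG101 and WRKY22 were also highest there, at 7.55 and 7.75. SWEET15 and WRKY6 were highest in rpoTmp line 2 and aox1a line 1 under MLD, at 5.15 and 6.50. AUR1, a kinase of dividing cells and 1 of 9 such markers measured, had its highest group mean of 4.29 in untreated wild type of the double set. In the first pair of probe sets the GAPDH ratio was 3.60 ± 0.10 in untreated wild type and 3.21 ± 0.07 in the untreated double mutant, and under MLD 4.02 ± 0.12 and 3.33 ± 0.26 (SD, n = 3 each). The second pair did not part the genotypes, with 0.37 ± 0.04 and 0.40 ± 0.02 untreated and 0.50 ± 0.13 and 0.47 ± 0.16 under MLD. Here too the part of these measures was not tested.

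The wild types of the 3 sets carry the same genotype label and differed in the levels of these genes. AGL24 was higher in untreated wild type of the rpoTmp set than of the aox1a set by 1.64 ± 0.32, and by 1.63 ± 0.32 under MLD, although both are labelled 4 weeks in every source. Without untreated replicate 2 of the aox1a set the first of these was 1.40. Against the rpoTmp set, wild type of the double set was lower for AGL24 by 1.20 ± 0.32 untreated and by 1.41 ± 0.32 under MLD (log2 differences -1.20 and -1.41). AGL42 was lower than in the aox1a set by 3.15 ± 0.65 in untreated wild type of the rpoTmp set and by 3.00 ± 0.65 in that of the double set (-3.15 and -3.00), and by 3.10 and 2.94 without that array (-3.10 and -2.94). For AGL19 the untreated wild types differed by -0.55 ± 0.58 for the rpoTmp set and -0.65 ± 0.58 for the double set against the aox1a set. Without that array these were -0.87 and -0.98, and the arrays, which overlapped with it, were then separate in both cases. Under MLD it was lower by 2.46 ± 0.58 (-2.46) in the rpoTmp set than in the aox1a set. The arrays of untreated wild types did not overlap for 2 of the 3 genes between the rpoTmp and aox1a sets (background 41.3%), for 1 between the double and aox1a sets (61.5%) and for 1 between the double and rpoTmp sets (53.6%). These gaps between control groups are as large as many of the differences between mutant and wild type. The set cannot be told apart from a batch of arrays, if there was one. Under MLD the 3 wild types are labelled 4 weeks in every source, while untreated wild type of the double set is given 5 weeks in the sample characteristics alone.

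**Figure D3:**
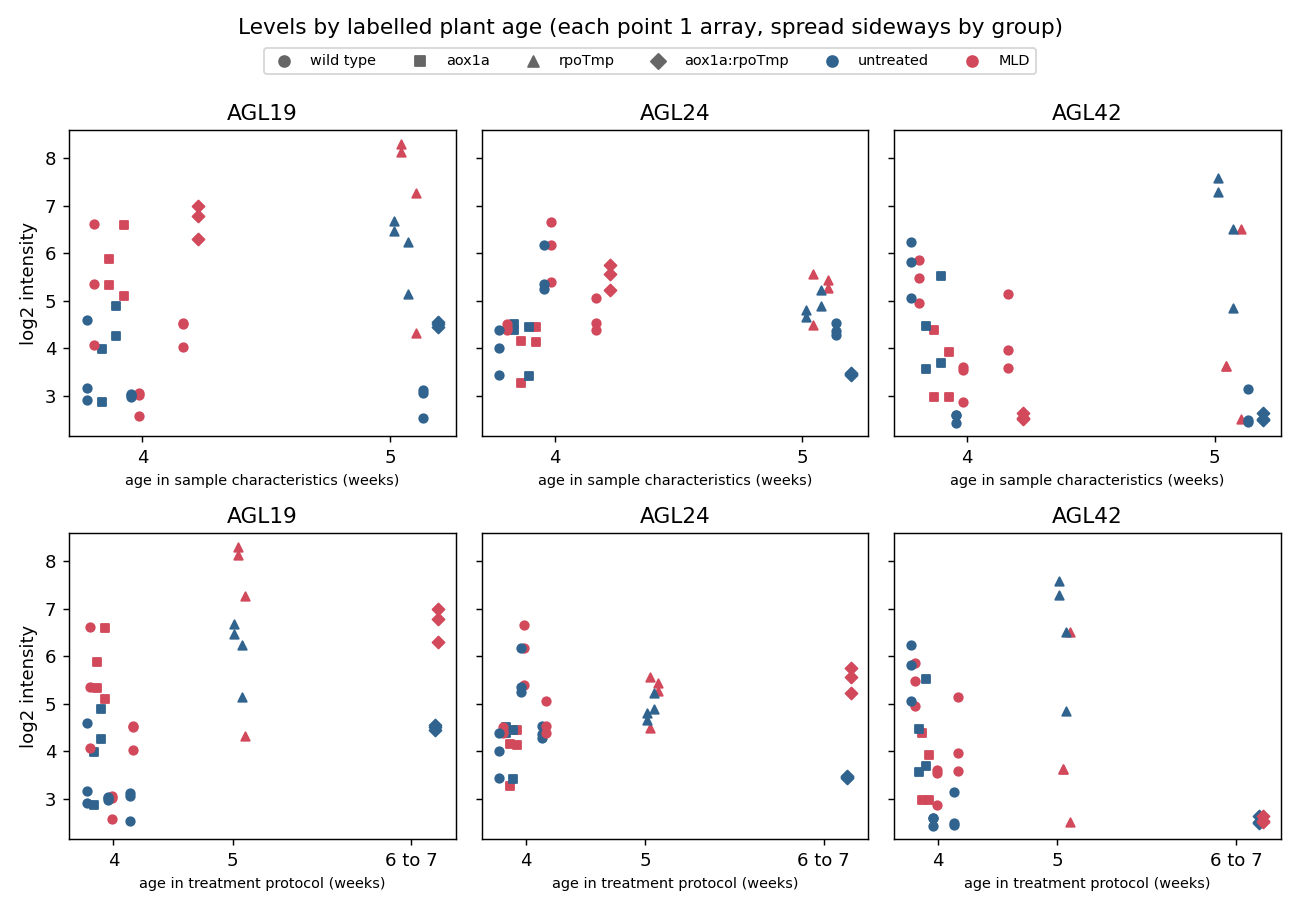
Log2 intensity (vertical axes) of AGL19, AGL24 and AGL42 against the age in the sample characteristics (top, 4 or 5 weeks) and in the treatment protocol (bottom, 4, 5 or 6 to 7 weeks), with 1 point per array, symbols for genotype and colours for treatment. Untreated AGL19 lay at 5.15 to 6.68 in the 4 arrays with a protocol age of 5 weeks, all of them rpoTmp, and at 4.46 to 4.56 in the 3 with 6 to 7 weeks, all of them double mutant.

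Read against the protocol's ages, every untreated AGL19 reading below those of the double mutant came from plants given 4 weeks. The untreated readings ran from 2.54 to 4.89 with a median of 3.07 in 13 such arrays, from 5.15 to 6.68 with a median of 6.35 in the 4 arrays of 5 weeks, and from 4.46 to 4.56 in the 3 arrays of 6 to 7 weeks. The oldest plants by this label were thus between the other groups and overlapped with the youngest. Under MLD the readings ran from 2.59 to 6.62 at 4 weeks, from 4.33 to 8.29 at 5 weeks and from 6.30 to 6.98 at 6 to 7 weeks, with medians of 4.54, 7.69 and 6.77. By the sample characteristics the picture differed: untreated arrays of 4 weeks had a median of 3.11 (2.88 to 4.89, 10 arrays) and those of 5 weeks a median of 4.53 (2.54 to 6.68, 10 arrays). The low end of the latter came from wild type of the double set, labelled 5 weeks there, at 2.54 to 3.12.

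For AGL24 and AGL42 the order by protocol age depended on treatment. Untreated AGL24 ran from 3.41 to 6.17 (median 4.39) at 4 weeks, from 4.66 to 5.22 (median 4.84) at 5 weeks and from 3.45 to 3.48 (median 3.46) at 6 to 7 weeks. Under MLD its medians were higher at each older age, at 4.46 (3.27 to 6.66), 5.35 (4.50 to 5.57) and 5.56 (5.23 to 5.76), while both its highest and its lowest readings were from plants given 4 weeks. Untreated AGL42 ran from 2.45 to 6.24 (median 3.56) at 4 weeks, from 4.86 to 7.57 (median 6.90) at 5 weeks and from 2.50 to 2.65 (median 2.52) at 6 to 7 weeks. Under MLD its medians were lower at each older age, at 3.93 (2.88 to 5.85), 3.63 (2.51 to 6.50) and 2.55 (2.51 to 2.65). The older ages are each 1 mutant, so these orders are also orders of genotype. By the sample characteristics, 4 and 5 weeks had medians of 4.42 (3.41 to 6.17) and 4.45 (3.45 to 5.22) for untreated AGL24 and of 4.53 (3.27 to 6.66) and 5.35 (4.50 to 5.57) under MLD. For AGL42 they were 4.08 (2.45 to 6.24) and 2.90 (2.46 to 7.57) untreated and 3.60 (2.51 to 5.85) and 3.63 (2.51 to 6.50) under MLD, and the ages overlapped throughout.

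The 3 genes did not follow each other over the 16 group means. Pearson correlations were 0.04 between AGL19 and AGL24, 0.25 between AGL19 and AGL42 and -0.12 between AGL24 and AGL42 (Spearman 0.06, 0.24 and -0.14). The points of a set share that set, so these values are a description.

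**Figure D4:**
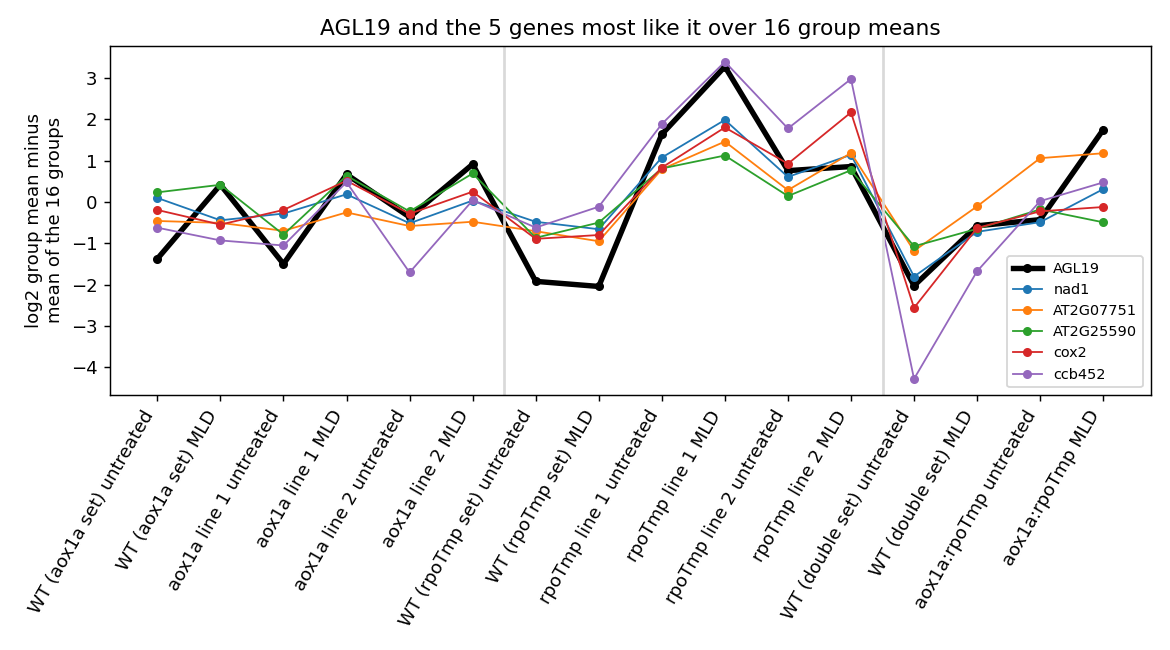
Group means of AGL19 (thick black line) and of the 5 genes most like it, as log2 differences from each gene's mean over the groups (vertical axis), in the 16 groups (horizontal axis). The correlations with AGL19 run from 0.75 for ccb452 to 0.83 for nad1.

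Among 3301 single-gene probe sets with a group mean of at least 5 somewhere and a range of at least 2, those with the pattern most like AGL19 by Pearson correlation over 16 group means were nad1 (0.83), AT2G07751 (0.79), AT2G25590 (0.77), cox2 (0.76) and ccb452 (0.75). In mitochondria nad1 codes for a subunit of complex I and cox2 for a subunit of cytochrome c oxidase. AGL19 and nad1 both had their highest group mean in rpoTmp line 1 under MLD, where nad1 read 7.98. The lowest group mean of nad1, 4.20, was in untreated wild type of the double set. AGL19 read 2.91 there, next to its own lowest of 2.89 in wild type of the rpoTmp set under MLD, with overlapping arrays. For AGL24 the most alike were AT4G22120 (0.83), AT3G10840 (0.83), AT3G03770 (0.83), AT5G12110 (0.83) and AT3G19100 (0.80). For AGL42 they were AT3G28500 (0.76), the cytochrome P450 gene CYP71B24 (0.69), AT2G14080 (0.65), AT1G19960 (0.63) and AT3G09410 (0.63), so no gene followed it as closely. By Spearman correlation 4, 4 and 3 of the 5 genes stayed among the first 5.

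AGL71 and AGL72, the closest relatives of AGL42, stayed at the floor, with group means of 2.19 to 2.59 and 2.50 to 2.82.

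Of 142 flowering genes listed, 19 had a single-gene probe set. FLC, SVP, SOC1, FT, LFY, AP1, FUL and AGL14 were not analysed here, nor was any listed gene of the Polycomb, SPL or abscission pathways. FD and ATC, from the list of floral integrators and meristem identity genes, stayed at the floor, with group means of 2.23 to 2.82 and 1.89 to 2.02. The measured genes therefore speak for gibberellin signalling, the photoperiod and autonomous pathways and a few repressors. Calls below have an adjusted p under 0.05 from limma with Benjamini-Hochberg adjustment over all probe sets of a comparison.

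**Figure D5:**
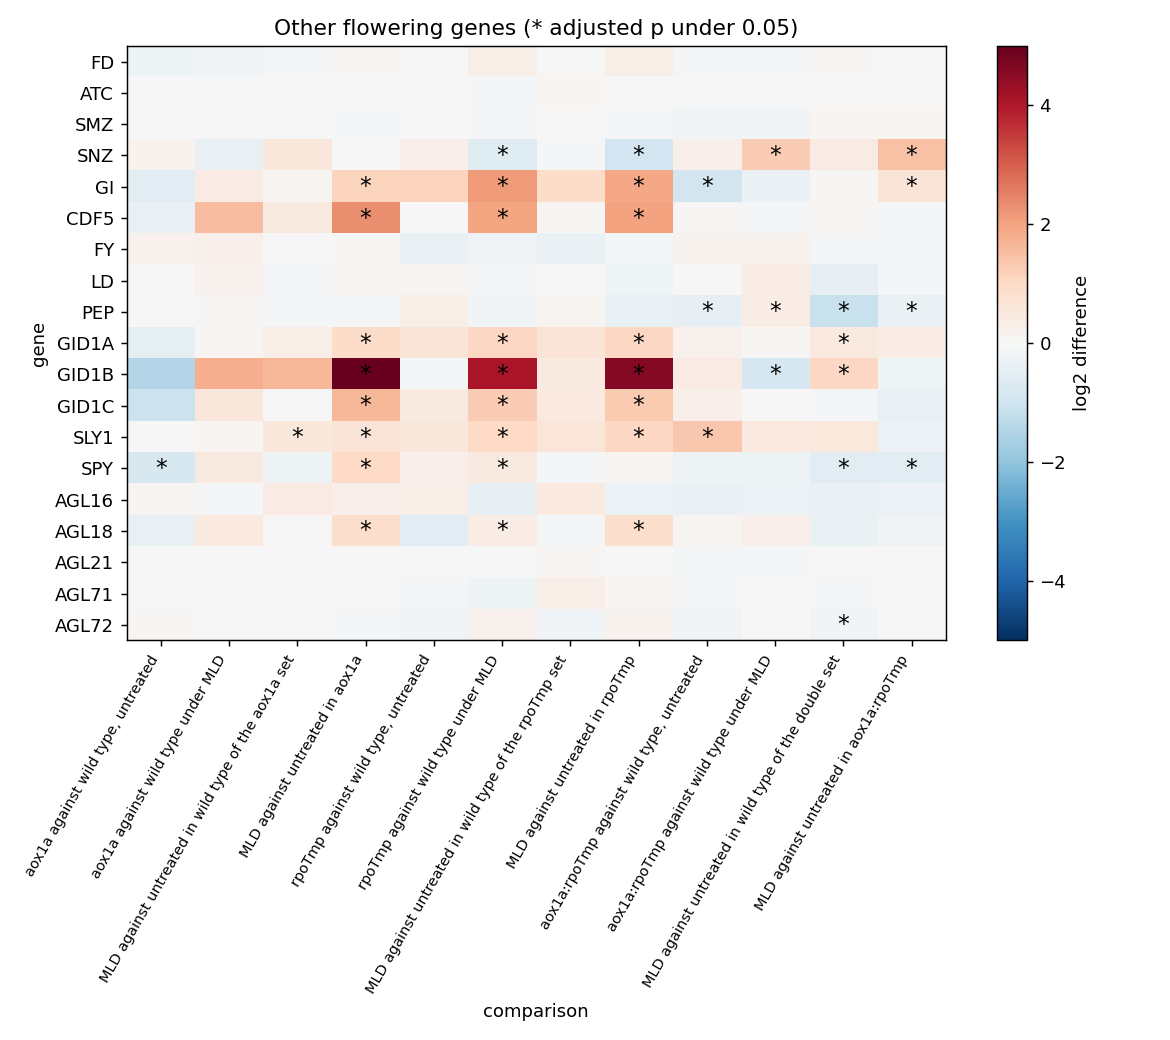
Log2 differences (colour, red higher and blue lower) of 19 other flowering genes (vertical axis) in the 12 comparisons (horizontal axis), with a star where the adjusted p was under 0.05. GID1B has the deepest red, at 4.95, 4.08 and 4.58 in the comparisons of aox1a and rpoTmp under MLD that carry a star.

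With MLD in aox1a, 8 of the 19 genes rose and none fell (42.1%, against 52% of all probe sets called). The median difference of the list was 0.15 and that of all probe sets -0.02. GID1B, a gibberellin receptor, rose from a log2 mean of 2.76 to 7.71, by 4.95 ± 0.59 (SE, adjusted p = 0.000209, limma), and the receptor GID1C by 1.68 ± 0.31 (adjusted p = 0.00195, limma). SPY, a glycosyltransferase-like repressor of gibberellin signalling, rose by 1.01 ± 0.13. CDF5, a DOF factor that represses CONSTANS, rose by 2.34 ± 0.54, and AGL18, a MADS-box repressor of flowering, by 0.87 ± 0.14. The third receptor GID1A and SLY1, the F-box protein that marks DELLA repressors for breakdown, were called as well (0.93 ± 0.16 and 0.66 ± 0.06) and are named after their values were seen. In wild type of that set 1 gene rose, SLY1 by 0.57 ± 0.07 (5.26%, background 3.35%), and without untreated replicate 2 there were 3 calls. Between aox1a and wild type 1 gene was called untreated, SPY at -0.81 ± 0.14 (5.26%, background 6.85%), which was lost in 4 of 7 fits that left out 1 array, that without wild-type replicate 2 among them. None was called under MLD (background 12.4%), where 7 genes had an unadjusted p under 0.05 in limma and where 1 gene was called without wild-type MLD replicate 2 or 3.

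With MLD in rpoTmp 7 genes rose and 1 fell (42.1%, background 34.7%), with a list median of 0.13 against -0.01 for all probe sets. GID1B rose from 2.68 to 7.27, by 4.58 ± 0.31 (adjusted p = 7.43e-06, limma), CDF5 by 2.02 ± 0.33, GID1C by 1.32 ± 0.25, SLY1 by 1.03 ± 0.27 and AGL18 by 0.86 ± 0.10. SNZ, an AP2-type floral repressor, fell by 0.97 ± 0.18 (log2 change -0.97). Under MLD 8 genes were higher in rpoTmp than in wild type and 1 lower (47.4%, background 30%), with a list median of 0.20 against 0.00. They were led by GID1B at 4.08 ± 0.34 (adjusted p = 3.35e-05, limma) and GI at 2.11 ± 0.25 (adjusted p = 0.000234, limma). CDF5 at 1.97 ± 0.36 and GID1C at 1.26 ± 0.28 followed. None of the 19 was called between untreated rpoTmp and wild type (background 1.55%) or with MLD in wild type (background 3.61%), with 4 genes under an unadjusted p of 0.05 in limma each time. In that wild type 1 gene was called without MLD replicate 2. The untreated comparison is the one in which AGL19 and AGL42 were farthest above wild type together.

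Of the 19 genes, 3 to 5 were called in each comparison of the double set. In the untreated double mutant SLY1 was higher by 1.33 ± 0.22, and PEP, a KH-domain RNA-binding protein, was at -0.40 ± 0.10 (3 of 19 called with GI, 15.8%, background 19.7%). Under MLD SNZ was higher in the double mutant by 1.28 ± 0.18 (adjusted p = 0.00039, limma) and PEP by 0.37 ± 0.10, and GID1B was at -0.85 ± 0.23 (3 of 19, background 35.9%). With MLD in wild type, GID1B rose by 1.05 ± 0.23 and GID1A by 0.51 ± 0.16, and PEP fell by 1.11 ± 0.10 and SPY by 0.56 ± 0.17 (5 of 19 called with AGL72, 26.3%, background 42.5%). AGL72 was called there with a difference of -0.14 ± 0.05 between readings at the floor. With MLD in the double mutant SNZ rose by 1.46 ± 0.18, and PEP fell by 0.34 ± 0.10 and SPY by 0.57 ± 0.17 (4 of 19 called with GI, 21.1%, background 22%). List medians in these 4 comparisons lay between -0.06 and -0.01, and those of all probe sets between -0.04 and -0.02. The calls of PEP untreated and with MLD in the double mutant, of GID1B under MLD, of GID1A, SPY and AGL72 in wild type and of SPY in the double mutant were lost in at least 1 fit with 1 array left out, with highest adjusted p between 0.0531 and 0.135 (limma). The count with MLD in wild type was 2 without wild-type MLD replicate 1 and 3 without replicate 2. With MLD in the double mutant it was 1 without MLD replicate 3 and 2 without untreated replicate 1 or replicate 2.

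The MLD response differed between mutant and wild type for 5 of the 19 genes in the aox1a set (background 22.4%), for 3 in the rpoTmp set (background 14.9%) and for 3 in the double set (background 32.6%). GID1B was the 1 gene called in all 3, with a larger response in aox1a and rpoTmp and a smaller one in the double mutant.

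GI, a clock-associated gene of the photoperiod pathway, had group means from 6.41 in untreated wild type of the rpoTmp set to 10.02 in aox1a line 2 under MLD. It rose with MLD by 1.13 ± 0.15 in aox1a (adjusted p = 0.000408, limma) and by 1.94 ± 0.23 in rpoTmp (adjusted p = 0.000168, limma). In the double mutant it rose by 0.63 ± 0.16 (adjusted p = 0.0164, limma), a call lost in 1 fit with 1 array left out. The untreated double mutant lay below its wild type, at -0.93 ± 0.16 (adjusted p = 0.00273, limma).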

How the data were processed

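The deposited values are linear intensity, in 1 table of 40 arrays and 22810 probe sets. Partek 6.5, GCRMA, MAS5 and Affymetrix Expression Console are named in the submitters' processing notes, without role or order. The genome build was not given in the sources used here, and a TAIR10.1 gene table served for names only. Array medians of the deposited intensity lay between 23.3 and 26.9, and the number of arrays limits the precision. The plan had allowed for log2 values, so log2 was taken, with no pseudocount, and 64 control probe sets were left out, which leaves 22746. A single gene was paired with 13513 of these, while 503 had several and 8730 no listed gene.

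The sets were fitted separately in R 4.3.3 with limma 3.58.1, using 1 coefficient for each group, and lines were averaged equally. Wild types of different sets were compared in a fit of all 40 arrays. Calls used a Benjamini-Hochberg adjusted p under 0.05. The fit was tested on simulated data. The 3 genes and all lists were chosen with earlier results of these data known. Named from each of 9 flowering lists were up to 3 genes per direction and comparison with the largest called change, and for each of the 3 genes the 5 most alike. Genes with more than 1 such probe set were represented by the one of highest mean. Alternatives were quantile normalization, an added 16 before log2, a mean log2 of at least 4, 1 fit of all arrays, a replicate block, each line alone, each array left out and Spearman correlation. The gaps between untreated wild types and the difference of responses without wild-type untreated replicate 2 of the aox1a set were added after seeing the data. No sequences are printed.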

Additional observations from a re-analysis of the deposited data

Results flagged for a closer look

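AGL24 differed between aox1a:rpoTmp and wild type in opposite directions, with -0.93 in untreated plants and 0.86 under MLD. Every array of the double mutant lay below the wild-type mean in the first case and above it in the second, and this difference was not tested because the gene was chosen on these values. The fitted AGL42 differences with MLD had opposite signs, at -2.49 ± 0.72 in rpoTmp and 0.80 ± 0.83 (SE) in wild type of its set. Every array lay on its side of the untreated mean of its genotype, and this was not tested either. The wild-type value is smaller than its SE and starts from a mean of 2.55, at the floor. With 16 added before log2 it was 0.27. For rpoTmp the side of each array rests on the mean over both lines. There, line 2 MLD replicate 1, at 6.50, lay 0.05 below that mean of 6.56 and above the untreated mean of line 2 itself, 5.68. The rpoTmp arrays of both treatments overlapped, and leaving out line 2 MLD replicate 1 or replicate 2 gave -3.48 or -1.49.

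Among the other flowering genes, 11 differences between the MLD responses of a mutant and of its wild type passed the interaction test in limma (adjusted p under 0.05). In the aox1a set, 5 of 19 genes did, with a larger response in the mutant for GID1B by 3.28 (adjusted p = 0.0324), GID1C by 1.65 (adjusted p = 0.0389), SPY by 1.26 (adjusted p = 0.00585), GI by 1.01 (adjusted p = 0.0193) and AGL18 by 0.84 (adjusted p = 0.0271). In the rpoTmp set, 3 of 19 did, GID1B by 4.15 (adjusted p = 0.000847), CDF5 by 1.96 (adjusted p = 0.0288) and AGL18 by 0.91 (adjusted p = 0.00534). In the double set, 3 of 19 did, SNZ by 1.04 (adjusted p = 0.011), PEP by 0.77 (adjusted p = 0.00183) and GID1B by -1.25 (adjusted p = 0.0148). Of these 11 differences, 6 kept an adjusted p under 0.05 when any 1 array was left out, and GI, GID1B, GID1C and AGL18 in the aox1a set and CDF5 in the rpoTmp set did not.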

How the results depend on the processing

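With 2 or 3 arrays per group and several readings at the floor, sizes of differences larger than 1 SD are less firm than their directions. For AGL19, AGL24 and AGL42, 191 of 212 recomputed differences moved by less than 1 SD of the arrays. With 1 array left out all 240 did, which could not be otherwise, because that SD includes the array left out. Some smaller differences changed sign there, such as AGL19 in aox1a against wild type under MLD, which ran from -0.26 to 1.00. The 21 of the 212 that moved further were these. An added 16 before log2, which shrinks low readings by construction, gave for AGL19 1.86 and 2.73 in rpoTmp against wild type (untreated, MLD), 0.72 and 1.70 in the double mutant, and 0.63 and 1.62 for MLD in wild type and double mutant. It gave -0.46 for AGL24 in the untreated double mutant and 1.20 for its MLD response there, and for AGL42 -1.06 in aox1a under MLD, 2.39 in untreated rpoTmp, 0.27 for MLD in wild type of the rpoTmp set, -0.70 in the double mutant under MLD and 0.66 for MLD in its wild type. Lines 1 and 2 alone gave for AGL19 in rpoTmp 3.56 and 2.68 untreated and 5.32 and 2.90 under MLD, for AGL42 in untreated rpoTmp 4.88 and 3.14, and for AGL24 with MLD in aox1a -0.74 and 0.37. No difference larger than 1 SD changed sign, which for the fits with 1 array left out follows from the same limit.

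Counts of called flowering genes moved in 21 of 72 recomputed cases. For aox1a against wild type untreated (1 call) they were 3 with a mean log2 of at least 4, 5 with all arrays in 1 fit and 0 with either line alone, and under MLD (0 calls) 1 with an added 16, 1 with the mean filter and 4 with all arrays. MLD in aox1a (8 calls) gave 5 with line 2 alone. Untreated rpoTmp (0 calls) gave 1 with quantile normalization, 1 with the mean filter, 3 with all arrays and 1 with line 1 alone. MLD in wild type of that set (0 calls) gave 1 with the filter and 3 with all arrays, and MLD in rpoTmp (8 calls) 5 with line 1 alone. In the double set, all arrays in 1 fit gave 1 under MLD (3 calls) and 3 for MLD in wild type (5 calls). The cause was not tested. Leaving out 1 array gave 0 to 2, 0 to 1, 1 to 3 and 8 to 9 calls in the aox1a set (untreated, MLD, MLD in wild type, MLD in mutant), 0 to 0, 6 to 8, 0 to 1 and 8 to 10 in the rpoTmp set and 2 to 3, 3 to 4, 2 to 5 and 1 to 3 in the double set. Of 42 named calls, 29 held in every such fit. With the replicate number as a block, calls were 4 and 2 for aox1a against wild type (untreated, MLD), 5 for the double mutant under MLD and 2 for its MLD response. The numbers did not pair the arrays: deviations of same-numbered arrays had median correlations of 0.06, 0.01 and 0.03 in the aox1a, rpoTmp and double sets.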
